A study of Mus musculus with 4 samples.

Results

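Immune checkpoint receptors and ligands are a set of 10 genes here, taken by symbol from the 32285 genes of the count matrices, and all 10 were found. The receptors are Pdcd1 (PD-1), Ctla4, Lag3, Havcr2 (TIM-3) and Tigit, the ligands are Cd274 (PD-L1), Pdcd1lg2 (PD-L2), Cd80 and Cd86, and Vsir (VISTA) acts as both. Single-cell RNA profiles were measured by droplet-based 3′ sequencing in cells dissociated from the brain hemisphere that had not been injected, with the Adult Brain Dissociation kit. There were 4 groups of C57BL/6 mice with 1 library each, taken 2 weeks after an intracranial injection. The old tumour library came from mice aged 93 weeks that had received 1000 CT2A-GFP-luc cells, a mouse glioblastoma line carrying GFP and luciferase. The young tumour library came from mice aged 8 weeks given the same cells. The old sham and young sham libraries came from mice of 93 and 8 weeks that had received PBS. How many mice stand behind each library is not given in the sources used here, and the injected hemisphere was not analysed here.

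Checkpoint receptors are displayed by T cells after activation and restrain them when they meet their ligands on antigen-presenting, stromal or tumour cells. PD-1 binds PD-L1 and PD-L2, CTLA-4 competes with the costimulatory receptor CD28 for CD80 and CD86, and LAG-3, TIM-3 and TIGIT bind MHC class II, galectin-9 and nectin-family proteins among other partners. Microglia, the resident macrophages of the brain, also carry several of these molecules, VISTA among them.

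Positions are those of GENCODE release vM21 on GRCm38, in which the gene identifiers of all 10 members were found. Pdcd1 (ENSMUSG00000026285) lies on chromosome 1 at 94038305 to 94052553 on the minus strand, and Ctla4 (ENSMUSG00000026011) on the same chromosome at 60887000 to 60915832 on the plus strand. Cd274 (ENSMUSG00000016496) at 29367455 to 29388095 and Pdcd1lg2 (ENSMUSG00000016498) at 29410919 to 29471161 are neighbours on the plus strand of chromosome 19, 22823 bases apart. Chromosome 16 holds Cd80 (ENSMUSG00000075122) at 38455561 to 38496335, Cd86 (ENSMUSG00000022901) at 36603869 to 36666081 and Tigit (ENSMUSG00000071552) at 43648867 to 43664146. Lag3 (ENSMUSG00000030124) lies on chromosome 6 at 124904361 to 124911705, Havcr2 (ENSMUSG00000020399) on chromosome 11 at 46454935 to 46481255, and Vsir (ENSMUSG00000020101) on chromosome 10 at 60346851 to 60372684. Exons of Cd274 overlap those of an antisense gene (AC119228.1), and Vsir lies within the opposite-strand gene Cdh23 without overlap of their exons. Whether counting used strand is not stated in the sources used here, so exon reads of Cd274 and AC119228.1 may not be told apart.

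The sequences below lie just before the RefSeq starts (build GRCm38.p6) of 4 members whose levels differed between the libraries in T cells or in myeloid cells. Lag3 and Cd86 also differed in T cells but had no promoter entry. Havcr2 and Vsir differed there as well and had an entry, which is not shown. They are written 5′ to 3′ on the strand of the gene. Pdcd1, Pdcd1lg2 and Ctla4 are shown as 250 bases at chr1:94052554-94052803, chr19:29410669-29410918 and chr1:60908775-60909024, none of which holds an annotated exon. For Cd274 only 30 bases are shown, at chr19:29367352-29367381, and this stretch overlaps 1 annotated exon. Capitals mark matches on either strand to 3 motifs, the interferon response core GAAANNGAA, the AP-1 motif TGANTCA and the NFAT core GGAAA, which were chosen after the sequences had been seen.
Pdcd1: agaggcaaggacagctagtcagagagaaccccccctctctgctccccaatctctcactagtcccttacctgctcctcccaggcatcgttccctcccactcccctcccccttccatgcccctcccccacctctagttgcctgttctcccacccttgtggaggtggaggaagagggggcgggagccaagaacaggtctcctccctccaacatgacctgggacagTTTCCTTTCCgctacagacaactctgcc
Cd274: actgggtggcTTCGGTTTCacagacagcgg
Pdcd1lg2: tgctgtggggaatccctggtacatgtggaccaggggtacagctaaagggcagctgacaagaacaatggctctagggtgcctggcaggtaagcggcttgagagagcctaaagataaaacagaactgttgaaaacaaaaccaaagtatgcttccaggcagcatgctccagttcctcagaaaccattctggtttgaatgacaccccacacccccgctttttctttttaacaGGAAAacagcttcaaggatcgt
Ctla4: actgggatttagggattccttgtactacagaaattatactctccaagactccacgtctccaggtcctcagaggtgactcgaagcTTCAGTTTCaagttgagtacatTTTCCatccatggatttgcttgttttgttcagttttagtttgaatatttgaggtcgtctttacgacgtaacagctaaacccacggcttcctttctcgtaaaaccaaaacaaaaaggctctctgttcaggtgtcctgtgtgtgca
Of 32851 windows of this length, 7.13% held the interferon response core, 6.75% the AP-1 motif and 55.6% the NFAT core. The interferon response core was found for Cd274 and Ctla4, and AP-1 only for Cd80 and Havcr2, among the 8 members with a promoter entry. Cd274 has an NFAT core match outside the stretch shown. A match is a description and shows no binding, and no printed match overlapped another.

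The libraries held 62726818 to 76652484 UMIs, and 9529 to 10571 cells were kept in each, with a median of 3773 to 4858 UMIs per cell. Any pair of libraries shared 27 to 53 cell barcodes. Cell classes were rebuilt by clustering without the 10 members, so their names carry "-like", and where values here and in the study differ, the rebuilt classes may be the source. A tumour-like cluster, led by Hmga2, held 436 cells of young tumour, 1 cell of old tumour and 0 cells of both sham libraries. Results over whole libraries are therefore given with and without it. In every class, age and the presence of tumour-like cells cannot be told apart between old tumour and young tumour. The same holds where tumour to sham ratios are compared between the ages. T cell-like cells numbered 154 in old tumour, 321 in young tumour, against 99 in old sham and 43 in young sham, with median depths of 3948, 4131, 3116 and 4044 UMIs in the same order. All 10 T cell markers were detected in each, summing to 6438 to 7837 CPM, which is UMIs of the genes scaled to a class total of 1000000. With 1 library per group no test between groups is possible. All intervals are 95% intervals (Poisson for levels and ratios, Clopper-Pearson for shares) that cover counting error only, not the spread between mice.

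The members divided by where their UMIs lay. T cell-like cells held 277 of the 315 Ctla4 UMIs (87.9%) and 15 of the 18 Tigit UMIs (83.3%) of all 4 libraries. Microglia-like cells held 90.1% of Lag3, 90.5% of Havcr2, 87.4% of Vsir and 81.5% of Cd86. Pdcd1 was split, with 400 of 817 UMIs (49.0%) in T cell-like and 365 (44.7%) in microglia-like cells. The ligands Cd274 and Pdcd1lg2 were spread most widely. Of 2321 Cd274 UMIs, 19.7% lay in microglia-like, 16.8% in endothelial-like, 15.9% in tumour-like and 8.14% in monocyte-like cells. Of 210 Pdcd1lg2 UMIs, 31.4% lay in dendritic cell-like and 28.1% in T cell-like cells. As a background for free RNA, astrocyte-like and oligodendrocyte-like cells (median 4074 to 4472 UMIs) held at most 2.28 CPM of each member other than Vsir, which reached 23.7 CPM there.

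In T cell-like cells the receptors Pdcd1, Ctla4 and Lag3 stood high in young tumour, and for Pdcd1 and Ctla4 the tumour library lay above its sham at 8 weeks and below it at 93 weeks. Pdcd1, the receptor for PD-L1 and PD-L2, was at 35.5 CPM in old tumour (22.5 to 53.3), 198 CPM in young tumour (178 to 221), 122 CPM in old sham (87.2 to 165) and 4.90 CPM in young sham (0.124 to 27.3). These levels rest on 23, 335, 41 and 1 UMIs. Cells with a Pdcd1 UMI made up 9.74% in old tumour, 35.8% in young tumour, against 26.3% in old sham and 2.33% in young sham, against at most 0.0733% of astrocyte-like and oligodendrocyte-like cells. By level the order of the libraries was young tumour, old sham, old tumour and young sham. No neighbouring intervals of the level overlapped except those of old tumour and young sham, which met between 22.5 and 27.3 CPM. The shares had the same order, but the intervals of young tumour (30.6 to 41.3%) and old sham (17.9 to 36.1%) overlapped. In cells drawn down to 1000 UMIs the shares were 17% in young tumour and 14.7% in old sham. The tumour to sham ratio was 0.292 (0.168 to 0.499) at 93 weeks and 40.5 (7.22 to 1604) at 8 weeks, the last against 1 UMI. The ratio at 8 weeks was 9.10 in cells drawn down to 1000 UMIs. Without the 5 cells with the most Pdcd1 in each library young sham had no UMI, and young tumour was at least 10.3-fold above it. On the log2 scale the ratio at 93 weeks minus that at 8 weeks was -7.11 (-10.04 to -4.19).

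Ctla4, the CD28-like receptor that takes CD80 and CD86, was likewise highest in young tumour, followed by old sham. Its level was 10.8 CPM in old tumour (4.35 to 22.3), 149 CPM in young tumour (131 to 168), 56.3 CPM in old sham (33.9 to 88.0) and 0 in young sham. There, 0 of 43 cells allow a share with a UMI of up to 8.22%. Young tumour was at least 10.1-fold above young sham, taking 3 counts as the floor in a library at 0, and at least 2.11-fold in cells drawn down to 1000 UMIs. Old tumour, in contrast, was at 0.192 of old sham (0.0682 to 0.477). Old tumour and young sham cannot be ordered, since the interval of young sham reached 18.1 CPM.

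Lag3, the receptor for MHC class II, was at 23.2 CPM in old tumour (13 to 38.2), 93.6 CPM in young tumour (79.5 to 109), 8.89 CPM in old sham (1.83 to 26.0) and 4.90 CPM in young sham (0.124 to 27.3). Only young tumour stood clear of the other intervals. Its ratio to young sham was 19.1 (3.38 to 759), against 1 UMI, while old tumour over old sham was 2.61 (0.737 to 14.0). With each cell drawn down to 1000 UMIs, Lag3 had no UMI left in young sham and the ratio was a bound of 1.29, no longer past 1.5-fold. Havcr2, which binds galectin-9, was at 6.18 CPM in old tumour, 31.4 CPM in young tumour, 5.93 CPM in old sham and 9.80 CPM in young sham, from 4, 53, 2 and 2 UMIs. Tigit, a receptor of nectin-family ligands, had 1 UMI in old tumour, 12 in young tumour, against 2 in old sham and 0 in young sham, too few for an order of levels.

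Vsir went the other way at 8 weeks. It was at 75.7 CPM in old tumour (56.0 to 100.1), 62.2 CPM in young tumour (50.9 to 75.3), 80.0 CPM in old sham (52.7 to 116) and 118 CPM in young sham (75.3 to 175). Young tumour over young sham was 0.529 (0.337 to 0.862), and old tumour over old sham was 0.946, with overlapping intervals. Of the ligands, Pdcd1lg2 was at 6.18 CPM in T cell-like cells of old tumour, 30.8 CPM in young tumour, 8.89 CPM in old sham and 0 in young sham. Cd86 was at 15.5, 30.2, 17.8 and 0 CPM in the same libraries. Their young tumour levels were at least 2.09-fold and at least 2.05-fold above young sham. Neither call held in cells drawn down to 1000 UMIs (bounds of 0.689 and 0.551) or without the top 5 cells of each gene (1.29 and 1.27), and that of Pdcd1lg2 also ended with the first round of clustering alone. The Vsir call ended without its top 5 cells (0.683) and without the Nkg7-led cluster (0.584).

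**Figure D1:**
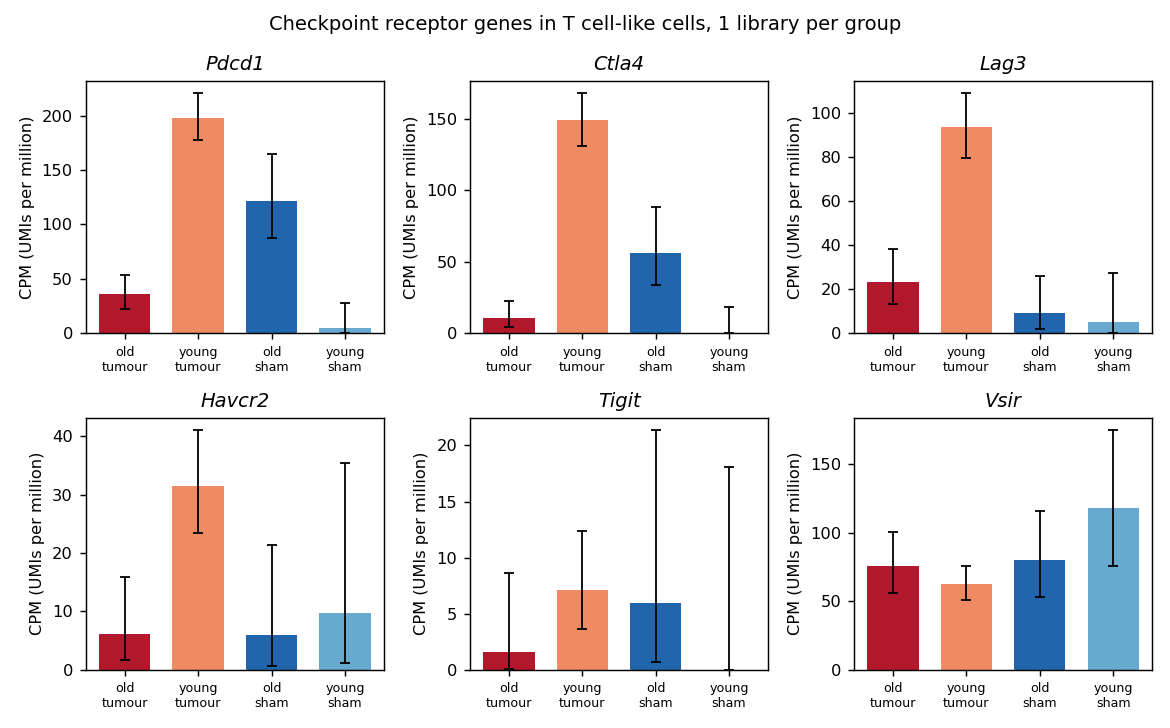
Levels of the 5 receptors and Vsir in T cell-like cells (CPM, linear axes that start at 0 and differ between panels), with a bar for each of the 4 libraries and lines for the 95% Poisson interval. A library at 0 UMIs has a line and no bar. Pdcd1 stands at 198 CPM in young tumour and 122 CPM in old sham, above 35.5 CPM in old tumour and 4.90 CPM in young sham.

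Calls were made where a gene had at least 10 UMIs over the libraries compared, a difference of 1.5-fold or more either way and an interval that left out 1. Between old tumour and old sham T cell-like cells, 0 of 6 measured members were higher, against 2.18% of 7006 genes, and 2 (Pdcd1, Ctla4) were lower, against 4.75%. Ctla4, with 7 UMIs in old tumour and 19 in old sham, reached 10 through old sham alone. Between young tumour and young sham, 5 of 10 members were higher (Pdcd1, Pdcd1lg2, Ctla4, Cd86, Lag3), against 4.20% of 8954 genes, and 1 (Vsir) was lower, against 5.22%. The members' median log2 ratio was -0.57 at 93 weeks, where that of all genes was -0.05, and 1.05 at 8 weeks, where that of all genes was 0.01 and 6 members stood at their bound. These 6 had no UMI in young sham and reached 10 UMIs through young tumour alone, so they could not have been called lower. The count and the median at 8 weeks are therefore a description and no support for a shift of the set. The median of all genes was shifted by -0.12 in 2 of the comparisons reported, old against young tumour T cell-like cells and young tumour against young sham over all cells.

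The direct comparison of the ages put the old below the young with a tumour and above it in the shams. Old tumour was lower than young tumour for 5 of 10 members, against 10.3% of 9314 genes, and higher for 0, against 4.55%. The ratios were 0.179 for Pdcd1 (0.112 to 0.273), 0.0728 for Ctla4 (0.029 to 0.152), 0.248 for Lag3 (0.135 to 0.421), 0.197 for Havcr2 (0.0518 to 0.535) and 0.201 for Pdcd1lg2 (0.0527 to 0.546). Of these, Ctla4 (7 UMIs in old tumour, 251 in young tumour), Havcr2 and Pdcd1lg2 reached 10 UMIs through young tumour alone. The count is therefore a description and no support for a shift of the set. In contrast, old sham was higher than young sham for 2 of 3 measured members, against 4.92% of 5471 genes, and lower for 0, against 6.80%. The ratio was 24.8 for Pdcd1 (4.21 to 1003) and at least 3.83 for Ctla4. Pdcd1, with 1 UMI in young sham, and Ctla4, with none, reached 10 UMIs through old sham alone. Ctla4 could not have been called lower there either. These comparisons share libraries with those of tumour and sham.

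Young sham T cell-like cells were few and not pure. Endothelial markers summed to 77.3 CPM in old tumour, 161 CPM in young tumour, 47.4 CPM in old sham and 1656 CPM in young sham T cell-like cells, with 6, 8, 7 and 7 of 8 markers detected. B cell markers summed to 66.5, 155, 68.2 and 412 CPM in the same order, with 2, 7, 1 and 6 of 7 detected. Without cells holding an endothelial or B cell marker, the young tumour to sham ratio was 29.7 for Pdcd1, at least 8.17 for Ctla4 and 13.3 for Lag3, and the old ratio for Pdcd1 was 0.285.

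**Figure D2:**
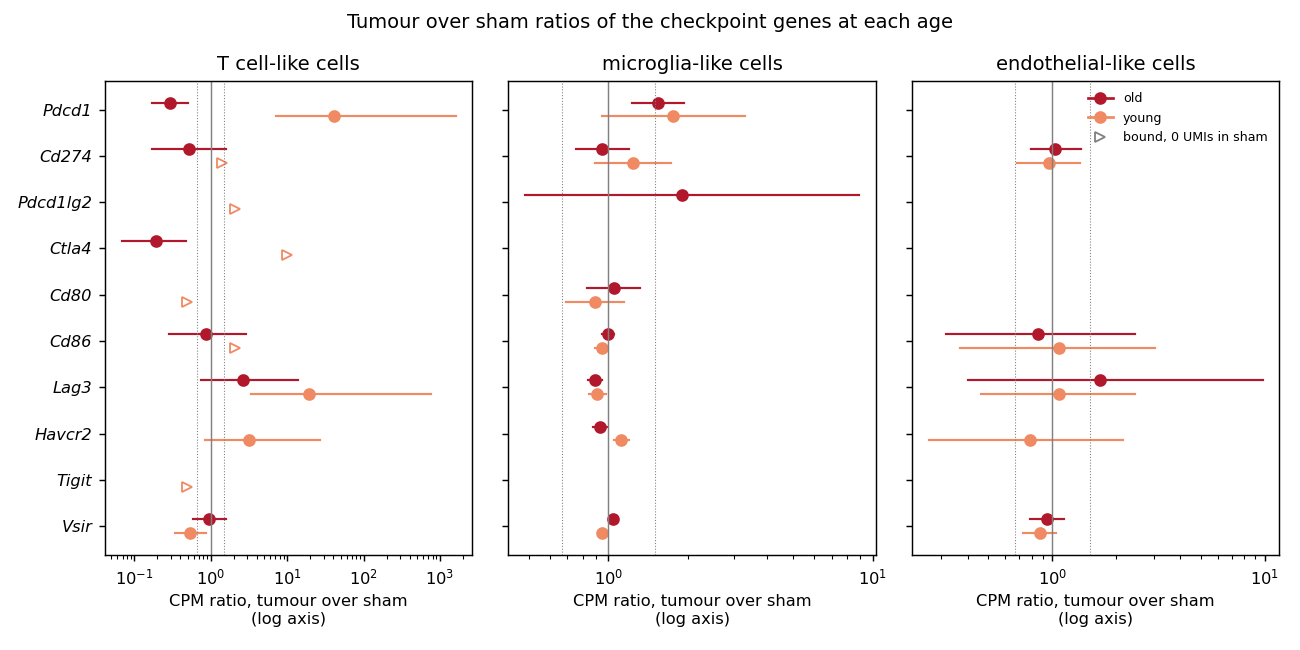
Ratios of tumour to sham (log axis, 95% counting intervals) for each member at 93 and at 8 weeks, in T cell-like, microglia-like and endothelial-like cells. Solid lines mark a ratio of 1, dotted lines 1.5-fold either way, and open triangles a lower bound where the sham had 0 UMIs. Members under 10 summed UMIs are not drawn. In T cell-like cells Pdcd1 lies at 0.292 for 93 weeks and 40.5 for 8 weeks, whereas most microglia-like and endothelial-like ratios lie near 1.

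Receptor levels differed between clusters of T cell-like cells. A cluster led by Nkg7, with Gzmb and Cd8a among its leading genes, held 82 cells of young tumour, 2 of young sham and 0 of both old libraries. In young tumour it had 321 CPM of Pdcd1, with a UMI in 68.3% of cells, 156 CPM of Lag3, 81.1 CPM of Ctla4 and 43.5 CPM of Havcr2. A cluster led by Tnfrsf4, the OX40 receptor, held 188 of the 251 Ctla4 UMIs of young tumour, while 16 of the 19 of old sham lay in the Ms4a4b-led cluster. In the Tnfrsf4-led cluster Ctla4 was at 28.3 CPM in old tumour (28 cells), 332 CPM in young tumour (121 cells), 57.4 CPM in old sham (15 cells) and 0 in young sham (15 cells). The largest cluster, led by Ms4a4b, had 26.1 CPM of Pdcd1 in old tumour (116 cells), 60.8 CPM in young tumour (113 cells), 117 CPM in old sham (80 cells) and 10.2 CPM in young sham (22 cells). In that cluster old sham therefore had the highest Pdcd1 level of the 4 libraries, and its Ctla4 was likewise 6.02, 20.3, 58.3 and 0 CPM. Lag3 there was 30.1 CPM in old tumour and 29.3 CPM in young tumour, close to each other. Without the Nkg7-led cluster the ratio of young tumour to young sham was 21.5 for Pdcd1 and 9.59 for Lag3, and that of old to young tumour was 0.300 for Pdcd1 and 0.439 for Lag3.

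Splitting by coreceptor gave the same picture for CD8. T cell-like cells with a UMI of Cd8a or Cd8b1, the chains of the killer T cell coreceptor, had 29.7 CPM of Pdcd1 in old tumour (104 cells), 249.5 CPM in young tumour (154 cells), 116 CPM in old sham (73 cells) and 8.89 CPM in young sham (24 cells). Lag3 was 29.7, 121, 11.6 and 8.89 CPM in these cells. Cells with a UMI of Cd4 and none of Cd8a or Cd8b1 were too few outside young tumour to order, at 12, 57, 6 and 4. In young tumour they had 178 CPM of Pdcd1 and 261 CPM of Ctla4. Cells with a UMI of Foxp3, the factor of regulatory T cells, numbered 2 in old tumour, 35 in young tumour, against 1 in old sham and 0 in young sham. Those 35 cells had 555 CPM of Ctla4 and 84.6 CPM of Pdcd1, so that 118 of the 251 Ctla4 UMIs of young tumour T cell-like cells lay in them.

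Detection of several receptors in 1 cell was mostly seen in young tumour. At least 1 of Pdcd1, Ctla4, Lag3, Havcr2 and Tigit was found in 23.4% of T cell-like cells of old tumour (16.9 to 30.9), 55.8% of young tumour (50.1 to 61.3), 40.4% of old sham (30.7 to 50.7) and 9.30% of young sham (2.59 to 22.1). At least 2 were found in 4 cells of old tumour (2.60%), 106 of young tumour (33.0%), against 6 of old sham (6.06%) and 0 of young sham. At least 3 were found in 0, 40, 1 and 0 cells. Old sham thus had many cells with a receptor but few with a pair. With each cell drawn down to 1000 UMIs, the share with at least 1 was 6.58% in old tumour, 29.2% in young tumour, against 22.1% in old sham and 2.33% in young sham, and that with at least 2 was 0.658, 7.05, 1.05 and 0%. This left out 2, 9, 4 and 0 shallower cells. The order of the libraries was the same in both. For at least 1, however, the thinned intervals of young tumour (24.2 to 34.6) and old sham (14.2 to 31.8) overlapped. For at least 2, the thinned shares of old tumour and old sham rest on 1 cell each.

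Within young tumour, Lag3 was detected in 59 of 115 T cell-like cells with Pdcd1 (51.3%) and in 14.1% of those without. Ctla4 was found in 33.9% and 18.9%, and Havcr2 in 20% and 6.80%. In old tumour 3 of 15 cells with Pdcd1 had Lag3 (20%), against 7.19% of the others. In old sham 0 of 26 cells with Pdcd1 had Lag3, and Ctla4 was found in 15.4% of cells with Pdcd1 and 15.1% of those without. Deeper cells yield more of every gene, and these shares were not depth-matched.

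**Figure D3:**
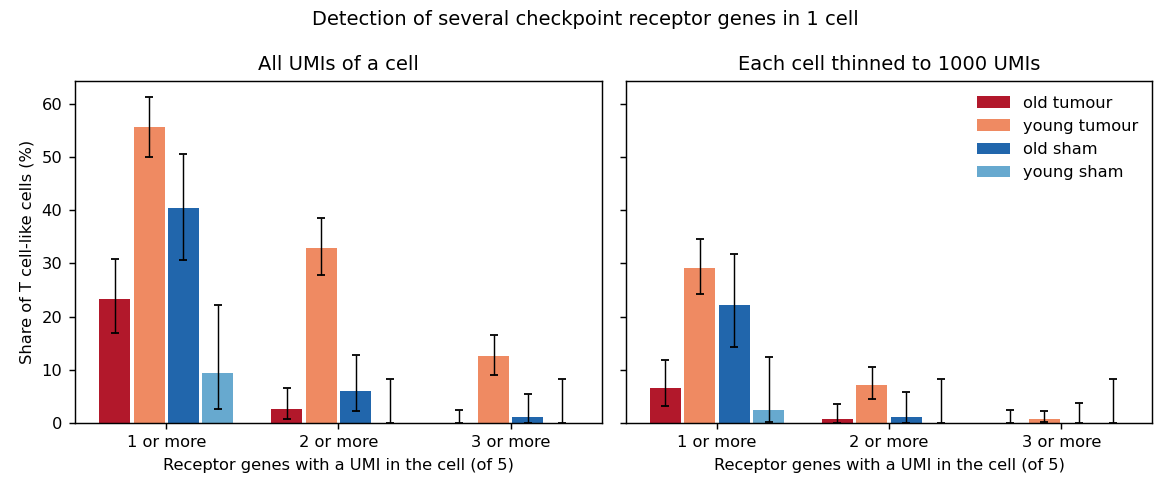
Share of T cell-like cells (percent, 95% Clopper-Pearson bars) with a UMI of at least 1, 2 or 3 of the 5 receptors, by library, from all UMIs (left) and with each cell drawn down to 1000 UMIs (right). From all UMIs the young tumour shares are 55.8, 33.0 and 12.5%, and those of old sham are 40.4, 6.06 and 1.01%.

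NK cell-like cells held few receptor UMIs. There were 9, 58, 7 and 5 of them in old tumour, young tumour, old sham and young sham, so values outside young tumour rest on a few UMIs. Young tumour NK cell-like cells had no Pdcd1 or Havcr2 UMI, 2 UMIs each of Lag3 and Tigit and 1 of Ctla4. With 3 cells taken as the floor for 0 of 58 cells, the share is 5.17%. Pdcd1 had 0 UMIs in old tumour, 3 in old sham and 1 in young sham. Pdcd1lg2, listed as a ligand, had 8 UMIs in 8 of these 58 cells (13.8%), at 45.0 CPM. In old tumour NK cell-like cells, T cell markers summed to 4211 CPM with 8 of 10 detected, so this class of 9 cells was not free of T cells.

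Partner genes of the receptors in T cell-like cells were described from lists and named by their UMI sums. Costimulatory genes of the CD28 and TNF receptor families differed in part. Between young tumour and young sham 4 of 8 measured were higher (Icos, Tnfrsf9, Tnfrsf4, Tnfrsf18) and 1 lower (Tnfsf9), and between old and young tumour 0 of 9 were higher and 4 lower. Tnfrsf18 (GITR) was at 72.6 CPM in old tumour, 389 CPM in young tumour, 130.4 CPM in old sham and 68.6 CPM in young sham. Tnfrsf9 (4-1BB) was at 15.5, 199, 17.8 and 0 CPM, and Cd28 at 178, 149.8, 288 and 132 CPM. Cd28 was thus highest in old sham, as was Tox, a factor of exhausted T cells, at 86.5 CPM in old tumour, 107 CPM in young tumour, 163 CPM in old sham and 19.6 CPM in young sham. Of exhaustion and activation factors, 1 of 13 was higher (Tox) and 3 lower between young tumour and young sham, and 0 of 12 higher and 4 lower (Tox, Nr4a1, Nr4a2, Nr4a3) between old tumour and old sham.

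Effector and regulatory genes also differed between old tumour and young tumour. Gzmb, a cytotoxic protease, was at 181 CPM in old tumour, 450.0 CPM in young tumour, 169 CPM in old sham and 0 in young sham. Gzmk, another granzyme, ran the other way at 261, 50.9, 302 and 53.9 CPM. Between old and young tumour 4 of 16 genes of this list were higher and 8 lower, and between young tumour and young sham 8 were higher and 2 lower. Ptpn6 (SHP-1), a phosphatase of inhibitory receptors, was at 68.0 CPM in old tumour, 148 CPM in young tumour, 77.1 CPM in old sham and 73.5 CPM in young sham. Among other inhibitory genes only H2-T23 was higher and Btla lower of 14 between young tumour and young sham. Of ligands and relatives of LAG-3, TIM-3, TIGIT and VISTA, 0 of 9 were higher and 1 (Lgals3) lower. Of interferon-gamma response and antigen presentation genes, 4 of 20 were higher and 4 lower in that comparison. The shares over all genes are those given above for T cell-like cells.

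Pdcd1 was also measured in microglia-like cells, and there it differed by age. It was at 15.9 CPM in old tumour (13.7 to 18.3), 2.74 CPM in young tumour (1.77 to 4.04), 10.3 CPM in old sham (8.60 to 12.2) and 1.56 CPM in young sham (0.964 to 2.38), from 187, 25, 132 and 21 UMIs. Both old libraries stood above both young ones. Cells with a Pdcd1 UMI were 143 of 2433 in old tumour (5.88%), 21 of 2834 in young tumour (0.741%), 110 of 2538 in old sham (4.33%) and 21 of 3708 in young sham (0.566%), with at most 5 UMIs in a cell. The share in astrocyte-like and oligodendrocyte-like cells was 0, 0.0733, 0 and 0%. Old over young was 5.80 with a tumour (3.81 to 9.19) and 6.6 in the shams (4.14 to 11).

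T cell markers were rare in these cells. At least 1 of 6 T cell markers was found in 1 of 143 cells with Pdcd1 in old tumour, 0 of 21 in young tumour, 1 of 110 in old sham and 0 of 21 in young sham. Among microglia-like cells without Pdcd1 it was found in 11 of 2290, 66 of 2813, 15 of 2428 and 5 of 3687. T cell markers summed to 1.53, 10.3, 2.02 and 0.667 CPM in the class, highest in young tumour, where Pdcd1 was low. Cells with Pdcd1 were deeper than the others, at a median of 6551 against 4582 UMIs in old tumour and 4435 against 3591 in young sham. Drawn down to 1000 UMIs, the share of cells was 1.02% in old tumour, 0.262% in young tumour, against 1.35% in old sham and 0.0862% in young sham, and old over young was 4.05 with a tumour and 16.1 in the shams.

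Different clusters hold the microglia-like class in the libraries, and Pdcd1 was compared within each. A cluster led by Tnf, a cytokine of activated microglia, numbered 302 cells in old tumour, 57 in young tumour, against 1342 in old sham and 193 in young sham. Its Pdcd1 level was 35.2 CPM in old tumour, 11.5 CPM in young tumour, 12.5 CPM in old sham and 5.87 CPM in young sham. In the cluster led by P2ry12, a receptor of homeostatic microglia, it was 11.5, 1.92, 10.2 and 1.33 CPM, and in that led by Zfp36 it was 11.5, 3.08, 4.55 and 1.11 CPM. Old lay above young in each of the 3 clusters, with and without a tumour. The young levels split only 25 UMIs of young tumour and 21 of young sham among these clusters, so each is imprecise. Without the Tnf-led cluster old over young was 4.79 with a tumour and 5.49 in the shams.

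Between old tumour and old sham microglia-like cells the Pdcd1 ratio was 1.54 (1.23 to 1.94), just past the threshold. It was below 1.5 under 3 other ways of processing, and in cells drawn down to 1000 UMIs it was 0.767, in the opposite direction, so no direction is read from it. Between young tumour and young sham it was 1.76 (0.945 to 3.30). The ratio at 93 weeks minus that at 8 weeks was -0.19 on the log2 scale (-1.08 to 0.71).

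**Figure D4:**
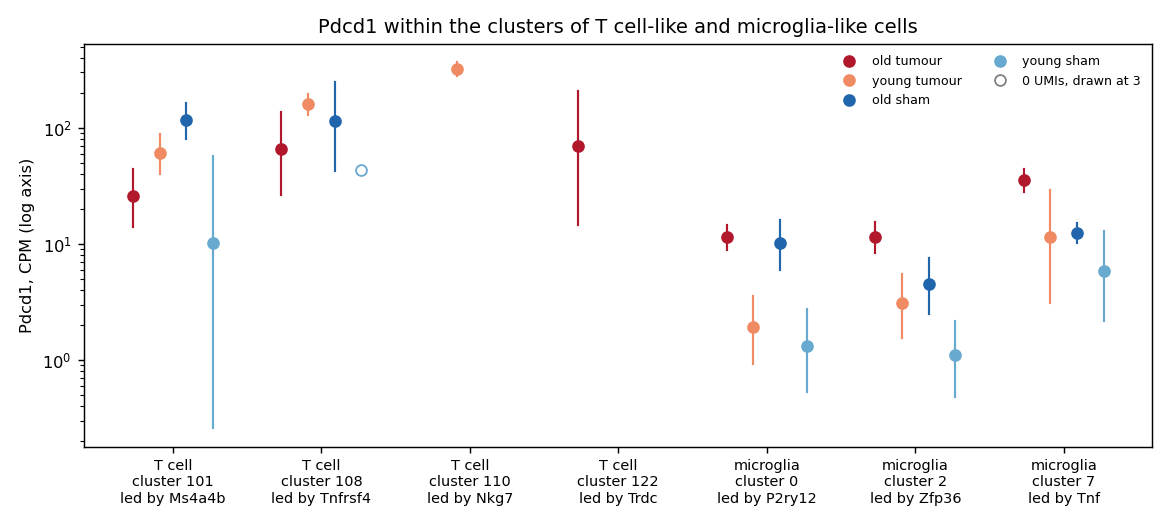
Pdcd1 level (CPM, log axis, 95% Poisson bars) in the T cell-like clusters and in the 3 microglia-like clusters, by library, where a library held at least 10 cells. An open symbol marks 0 UMIs, drawn at the floor of 3 counts. In each microglia-like cluster both old libraries lie above the young library with the same injection, and in the Nkg7-led T cell cluster only young tumour is drawn, at 321 CPM.

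Apart from Pdcd1 and Cd274, no member was called between libraries in microglia-like cells. Lag3 was at 159 CPM in old tumour, 126 CPM in young tumour, 179 CPM in old sham and 138 CPM in young sham, and Havcr2 at 172, 166, 185 and 149 CPM. Vsir was at 721, 898, 692 and 949.8 CPM, higher in the young of each injection but by less than 1.5-fold. Cd86 was at 223, 224, 224 and 237 CPM, and Cd80 at 12.7, 11.4, 12.1 and 12.7 CPM. Ctla4 had 0, 2, 0 and 1 UMIs and Tigit 0 in each library. With 3 cells taken as the floor for 0 of 3708 young sham cells, the Tigit share is 0.0809%. Vsir in the Tnf-led cluster was 464 CPM in old tumour, 434 CPM in young tumour, 600.0 CPM in old sham and 609 CPM in young sham, below its level in the P2ry12-led cluster at 790.0, 924, 883 and 1041 CPM.

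In counts, old tumour against old sham had 1 of 8 measured members higher (Pdcd1), against 4.61% of 13485 genes, and 0 lower, against 3.56%. Young tumour against young sham had 0 of 7 higher and 0 lower, against 3.07% and 1.51% of 13553 genes. Old against young had 2 members higher (Pdcd1, Cd274) and 0 lower in each injection. The background was 3.29% higher and 3.39% lower of 13409 genes with a tumour, and 6.03% and 7.63% of 13655 genes in the shams. The members' median log2 ratios were 0.02, -0.08, 0.25 and 0.31 for these 4 comparisons, against 0.06, 0.05, -0.08 and -0.08 for all genes.

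Cd274, the ligand of PD-1, had its highest levels in young tumour in monocyte-like and dendritic cell-like cells, followed by neutrophil-like cells at 69.8 CPM from 9 UMIs. Dendritic cell-like cells had 0 of it in old tumour (19 cells), 80.9 CPM in young tumour (222 cells), 5.03 CPM in old sham (23 cells) and 3.92 CPM in young sham (30 cells). Monocyte-like cells had 47.2 CPM in old tumour (24 cells), 88.9 CPM in young tumour (240 cells), 4.84 CPM in old sham (42 cells) and 6.81 CPM in young sham (53 cells). Young tumour stood above both shams in each class, while old tumour did so only in monocyte-like cells, from 8 UMIs. The ratio of young tumour to young sham was 20.6 (3.65 to 821) in dendritic cell-like and 13.1 (4.40 to 63.9) in monocyte-like cells. Different clusters made up these classes. A cluster led by Ccr7, which marks migrating dendritic cells, held 80 cells, all of young tumour, with 251 CPM of Cd274 (205 to 305), 114 CPM of Pdcd1lg2 (83.5 to 151), 155 CPM of Cd80 (119 to 198) and 225 CPM of Cd86 (181 to 275). In the other dendritic cell-like cluster, led by Napsa, Cd274 was 30.2 CPM and Pdcd1lg2 13.7 CPM in young tumour (142 cells). Of the 240 monocyte-like cells of young tumour, 218 lay in a cluster led by Ly6i, with 93.4 CPM of Cd274. The other libraries had 1 or 2 cells there. Most of their monocyte-like cells fell in a cluster led by Elane, with Mpo among its leading genes. Its cells numbered 15 (old tumour), 22 (old sham) and 32 (young sham), but only 7 in young tumour. The monocyte-like ratio thus compares different clusters, and it cannot separate a change of level from a change of cluster. All 30 dendritic cell-like cells of young sham lay in the Napsa-led cluster, so the dendritic cell-like ratio also compares different clusters in part.

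Pdcd1lg2, the other PD-1 ligand, was at 36.6 CPM in dendritic cell-like cells of young tumour and had no UMI in those of the other 3 libraries. Its young tumour level was at least 3.11-fold above young sham. This bound too compares different clusters, since the dendritic cell-like cells of the other libraries all lay in the Napsa-led cluster. Within that cluster Pdcd1lg2 was at 13.7 CPM in young tumour. In monocyte-like cells it was 10.6 CPM in young tumour and 0 in the others. For Pdcd1lg2, and for Cd86 below, monocyte-like levels again compare libraries made up of different clusters. Cd80 in dendritic cell-like cells was 10.6 CPM in old tumour, 46.0 CPM in young tumour, 35.2 CPM in old sham and 3.92 CPM in young sham, and within the Napsa-led cluster young tumour was at 13.7 CPM. Cd86, the more abundant CD28 ligand by UMIs in myeloid cells, was at 106, 180.1, 116 and 149 CPM in dendritic cell-like cells. In monocyte-like cells it was 41.3 CPM in old tumour, 164 CPM in young tumour, 53.3 CPM in old sham and 45.4 CPM in young sham, with only young tumour apart. In border-associated macrophage-like cells, which line vessels and meninges, Cd86 was 233 CPM in old tumour, 253 CPM in young tumour, 363 CPM in old sham and 264 CPM in young sham, and old tumour was at 0.642 of old sham (0.509 to 0.808). Vsir reached 369 to 451 CPM in neutrophil-like cells of the 4 libraries.

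Microglia-like Cd274 was low and differed by age, at 12.1 CPM in old tumour (10.2 to 14.3), 7.55 CPM in young tumour (5.88 to 9.56), 12.8 CPM in old sham (10.9 to 14.9) and 6.08 CPM in young sham (4.83 to 7.54). Old over young was 1.61 with a tumour (1.2 to 2.17) and 2.10 in the shams (1.60 to 2.77). The Tnf-led cluster, largest in old sham, had 24.3, 43.1, 15.7 and 5.87 CPM, above the whole class in all libraries but young sham, and without it the sham ratio was 1.29 and no longer past 1.5-fold. In cells drawn down to 1000 UMIs the ratio with a tumour was 1.40. The background level in astrocyte-like and oligodendrocyte-like cells was 2.15, 1.34, 1.81 and 0.830 CPM.

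Endothelial-like cells carried Cd274 in every library, and no difference between tumour and sham was called. The level was 21.0 CPM in old tumour (17.8 to 24.7), 13.1 CPM in young tumour (10.1 to 16.7), 20.3 CPM in old sham (16.3 to 25.0) and 13.6 CPM in young sham (10.9 to 16.7). The ratio of tumour to sham was 1.03 at 93 weeks (0.791 to 1.36) and 0.963 at 8 weeks. Old over young was 1.61 with a tumour (1.19 to 2.19) and 1.5 in the shams (1.10 to 2.03), the last not called, since it lay just under the threshold. In cells drawn down to 1000 UMIs the ratio with a tumour was 1.23, and the levels were 18.1 CPM in old tumour, 14.7 CPM in young tumour, 22.4 CPM in old sham and 8.63 CPM in young sham, from 9 to 16 cells with a UMI. The gap between the ages was thus wider in the shams and narrower with a tumour than from all UMIs, and young tumour lay above young sham. In the main cluster, led by Ctla2a, Cd274 was 22.0, 12.5, 18.9 and 12.7 CPM, and in the cluster led by Gkn3 it was 18.2, 16.9, 24.2 and 19.0 CPM. Vsir was at 40.5, 44.0, 42.9 and 50.5 CPM, while Pdcd1lg2, Cd80, Ctla4 and Tigit had at most 3 UMIs in a library. In counts, 0 of 4 measured members passed between old tumour and old sham, against 5.70% of 12650 genes, and 0 of 5 between young tumour and young sham, against 4.71% of 12579. Cd274 alone was higher of 5 between old and young tumour, against 4.35% of 12577 genes, and 0 of 5 passed between old and young sham, against 10.7% of 12699.

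**Figure D5:**
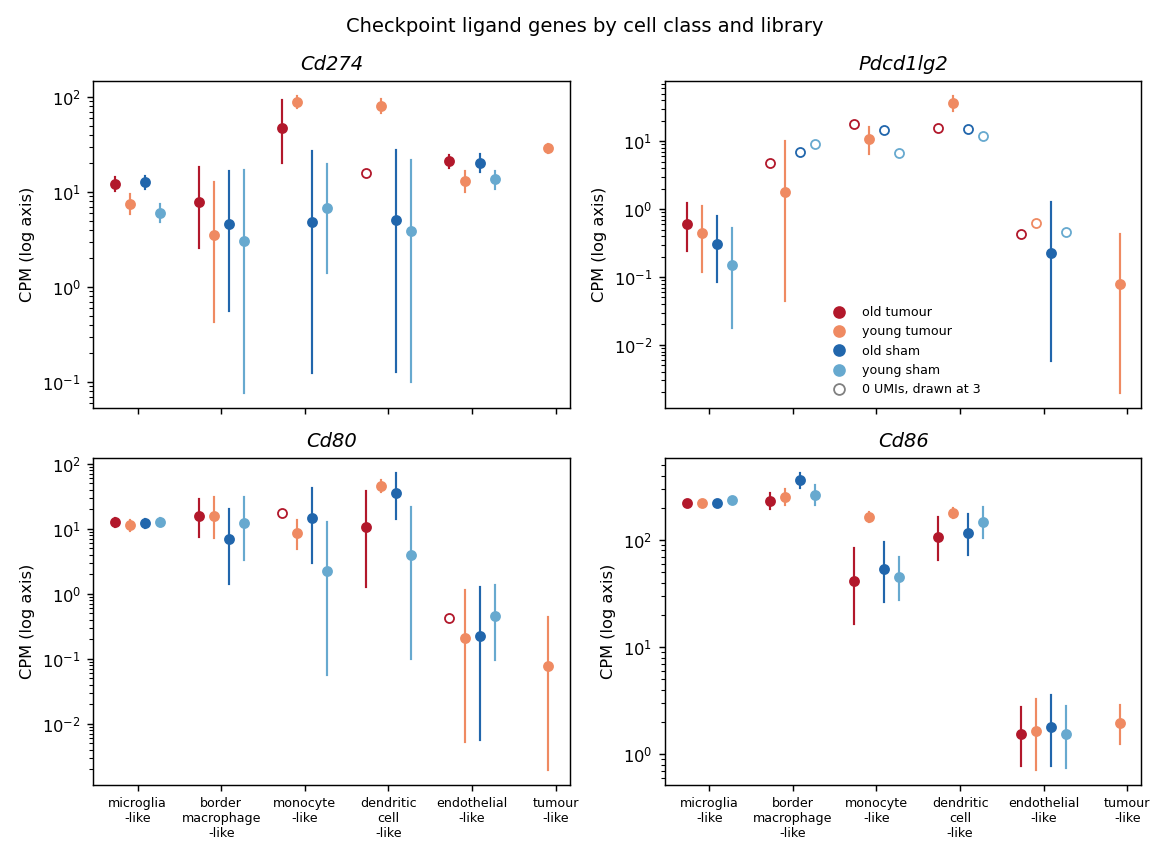
Levels of the 4 ligands (CPM, log axis, 95% Poisson bars) by class and library, where a library held at least 10 cells of the class. Open symbols mark 0 UMIs, drawn at the floor of 3 counts. Cd274 stands at 80.9 and 88.9 CPM in dendritic cell-like and monocyte-like cells of young tumour, and at 13.1 to 21.0 CPM in endothelial-like cells of all 4 libraries.

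Tumour-like cells carried PD-L1 transcripts and little else of the set. All 8 tumour-like markers were detected in them, summing to 7666 CPM, and their median depth was 25664 UMIs. In the 436 cells of young tumour Cd274 was at 28.9 CPM (26.0 to 32.0), with 370 UMIs in 160 cells (36.7%). Vsir was at 5.38 CPM, Lag3 at 2.26 CPM, Cd86 at 1.95 CPM, and the others at 0.624 CPM or less. No comparison between libraries can be made for this class. Ependymal-like cells, the ciliated lining of the ventricles, had Cd274 at 14.0 CPM in old tumour, 29.1 CPM in young tumour, 11.7 CPM in old sham and 6.98 CPM in young sham, and young tumour over young sham was 4.16 (2.38 to 7.80). Pericyte-like cells had 16.4, 15.4, 21.0 and 12.5 CPM.

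Interferon-gamma, which T and NK cells release, is known to induce PD-L1 and MHC genes. The list of interferon-gamma response and antigen presentation genes was therefore counted in microglia-like cells. Between young tumour and young sham 11 of 19 measured were higher and 1 lower, with a median log2 ratio of 0.83, against 3.07% higher and 1.51% lower and a median of 0.05 over all genes. Between old tumour and old sham 5 of 19 were higher and 4 lower, with a median of 0.09, against 4.61% and 3.56% and a median of 0.06. H2-D1, an MHC class I gene, was at 1109 CPM in old tumour, 1196 CPM in young tumour, 960.4 CPM in old sham and 532 CPM in young sham, and H2-K1 at 623, 778, 611 and 370.2 CPM. Young sham was thus the lowest of the 4, and old sham already stood near the tumour libraries. Between old and young sham 12 of 19 were higher and 0 lower (median 0.82), against 6.03% and 7.63% (median -0.08). Between old and young tumour 1 of 20 was higher and 6 lower (median -0.29), against 3.29% and 3.39% (median -0.08). Lgals9, which encodes the TIM-3 ligand galectin-9, was at 144, 137, 181 and 130.4 CPM, and Ptpn6 at 189, 196, 209.8 and 203 CPM. Tnf was at 155, 27.6, 619 and 61.3 CPM, in step with the size of the Tnf-led cluster.

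Over all kept cells of a library, values combine the level within cells and how many of each class were caught. Between young tumour and young sham 5 of 10 members were higher, against 11.3% of 19430 genes, and 1 (Vsir) lower, against 14.4%. The ratios were 14.0 for Pdcd1 (9.29 to 22.2), 3.89 for Cd274 (3.39 to 4.46), 24.2 for Pdcd1lg2 (10.9 to 66.8), 77.7 for Ctla4 (26.3 to 379), at least 4.32 for Tigit and 0.618 for Vsir (0.602 to 0.634). Without the tumour-like cluster they were 17.4, 3.33, 30.2, 97.3, at least 5.06 and 0.771, so that Vsir no longer passed. Young sham had 6 UMIs of Pdcd1lg2, 3 of Ctla4 and 0 of Tigit, so these reached 10 UMIs through young tumour alone. The count is therefore a description and no support for a shift of the set. Between old tumour and old sham 0 of 9 measured members passed in either direction, against 13.8% of 19315 genes. Old tumour was below young tumour for 5 of 10 members, against 12.9% of 19531 genes, at 0.558 for Pdcd1, 0.414 for Cd274, 0.121 for Pdcd1lg2, 0.0719 for Ctla4 and 0.0647 for Tigit. Without the tumour-like cluster Cd80 (0.605) and Cd86 (0.660) passed as well. Tigit, with 1 UMI in old tumour, reached 10 UMIs there through young tumour alone. Old sham was above young sham for 3 of 9, against 7.39% of 19198 genes, at 7.48 for Pdcd1, 1.55 for Cd274 and 7.35 for Ctla4. Ctla4, with 3 UMIs in young sham, reached 10 UMIs there through old sham alone.

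Genes most like the members were taken by Pearson r of log2(CPM + 1) over 65 points, each a class in a library, of 21 classes. These points share libraries and cells of the same kind, so r is a description. Pdcd1 was closest to the T cell genes Tcrg-C2 (r = 0.853), Trgv2 (0.852) and Themis (0.821). Ctla4 was closest to Gpr174 (0.881), Cd3g (0.880) and Cxcr6 (0.874). Cd274 was close to Tapbpl (0.797) and Nfkb2 (0.769), and Pdcd1lg2 to Gpr171 (0.942), P2ry10 (0.907) and Gpr18 (0.891). Cd86 was closest to Mpeg1 (0.913), Havcr2 to Rgs10 (0.851), Vsir to Lcp2 (0.841) and Cd80 to Lrch4 (0.798). Tigit had fewer than 100 UMIs and was not ranked.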

How the data were processed

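Single-cell RNA was measured with the 10x 3′ v3 chemistry, per the labels' protocols. The deposited files are matrices of raw UMI counts per gene and cell, made by the authors with Cell Ranger 3.0.2 on mm10 and followed by Seurat 2.3.4, per the submitters' processing notes. The matrix headers name Cell Ranger 6.1.0 instead, and the annotation release is not given in the sources used here. The strain field of the labels differs in its last digit between samples.

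From the counts, cells with 500 or more UMIs, 200 or more genes and 20% or less mitochondrial UMIs were taken (44503 of 46097 barcodes). Doublets were scored against simulated pairs, and the top-scored 0.8% per 1000 barcodes, 4113 in all (9.24%), were taken out. Clustering used scanpy 1.11.5, scikit-learn 1.9.0 and igraph 0.11.9 (2000 variable genes without the members, 30 components, 15 neighbours, Leiden resolution 1). Immune clusters were split again, a step chosen after seeing the data, which gave 47 clusters, 38 of them named from marker lists of 22 types and 9 left unnamed (2544 cells).

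Levels are UMIs of a gene scaled to a class total of 1000000 UMIs in a library (CPM). Intervals were computed with scipy 1.17.1 and numpy 2.4.6 and cover counting error only. There is 1 library per group, so no test was made. The members and lists were chosen with earlier results of these data known. All 10 members are named, with the 3 most similar genes for members with at least 100 UMIs (1 is printed for some, and some are not reported here) and, from each list, genes among the 6 with the largest UMI sum. Cluster genes and called genes of a list named beyond these were chosen after their values were seen. Thinning draws each cell down to 1000 UMIs. Alternatives covered cell filters, doublets, clustering, scaling, thinning and left-out clusters or cells. The ratio step was tested on simulated data.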

Additional observations from a re-analysis of the deposited data

Results flagged for a closer look

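Pairs of ratios are given here where 1 was called higher and the other lower, by the rule for calls above, in the 2 ages or the 2 injections. Pairs on opposite sides of 1 without both calls are not listed. The difference was not tested in any of them, since each group is 1 library.

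In T cell-like cells the tumour to sham ratio of Pdcd1 was 0.292 at 93 weeks and 40.5 at 8 weeks, and that of old to young was 0.179 with a tumour and 24.8 in the shams. For Ctla4 the ratios were 0.192 at 93 weeks and at least 10.1 at 8 weeks, and for old to young 0.0728 with a tumour and at least 3.83 in the shams. All 4 pairs include the young sham T cell-like cells, 43 cells with 1 Pdcd1 UMI, or the old sham ones, 99 cells.

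Over all kept cells, old to young was 0.558 with a tumour and 7.48 in the shams for Pdcd1, 0.414 and 1.55 for Cd274, and 0.0719 and 7.35 for Ctla4. In ependymal-like cells Vsir was 0.405 with a tumour and 2.11 in the shams.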

How the results depend on the processing

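The 35 ratios called for a member were recomputed under the alternatives, of which 5 were chosen after seeing the data. Of 382 values, 357 stayed past 1.5-fold in the same direction, 24 kept the direction only, and 1 turned: Pdcd1 in microglia-like cells between old tumour and old sham, 0.767 in cells drawn down to 1000 UMIs, against 1.54. Of 180 counts of called members, 154 lay within 1.5 times. In T cell-like cells, the count between old tumour and old sham was 1 when thinned and 1 with at least 30 summed UMIs. Between young tumour and young sham it was 3 when thinned and 3 without the top 5 cells, where young sham had no Pdcd1, Ctla4 or Lag3 UMI, and between the shams 1 when thinned and 1 with at least 30 UMIs. In microglia-like cells it was 0 between old tumour and old sham with members among the variable genes, median-centred, as the mean of cell CPM or thinned. It was 2 between young tumour and young sham under the stricter cell filter and at Leiden resolution 2. Between old and young tumour it was 1 under the stricter filter, at resolution 2 and thinned, and between the shams 1 without the Tnf-led cluster. In endothelial-like cells it was 2 between old and young tumour without doublet removal, 0 as the mean of cell CPM and 0 thinned, and between the shams 2 without doublet removal and 1 under the stricter filter, thinned, with totals lacking mitochondrial and ribosomal genes, or without the top 5 cells. Over all kept cells it was 1 between old tumour and old sham when thinned and 5 between the shams without doublet removal. Thinned, at least 1 receptor was found in 6.58% of old tumour, 29.2% of young tumour, against 22.1% of old sham and 2.33% of young sham T cell-like cells, and at least 2 in 0.658, 7.05 and 1.05% of the same first 3. The cause was not tested. Of 40 background levels, 27 stayed within their interval. No paired analysis was possible because each group has 1 library. Young sham T cell-like cells limit every ratio that uses them.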

Other observations

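Clusters left unnamed also held members. A Cd72-led cluster of 234 cells in young tumour, with 1 cell in old tumour and 0 in both shams, had 40.9 CPM of Cd274 and 106 CPM of Cd86 in young tumour. A Cst7-led cluster had Lag3 at 98.1 CPM in old tumour (21 cells), 142 CPM in young tumour (102 cells), 122 CPM in old sham (8 cells) and 44.2 CPM in young sham (19 cells). An H2-Aa-led cluster had Cd86 at 197, 137, 249.8 and 154 CPM in the same order. In B cell-like cells of old tumour, Ctla4 stood at 48.9 CPM, and all 8 of its UMIs lay in 1 cell.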
